A study of Triticum turgidum subsp. durum with 96 samples.

Results

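The hairpins described here are 59 predicted microRNA precursors of durum wheat (Triticum turgidum ssp. durum) that were located on sequences of the B genome. Durum wheat is a tetraploid with an A and a B genome. The study had searched survey sequences of bread wheat, which also holds a D genome, because only part of the durum genome was available. A hairpin was taken as a member if its name, of the form Ttu pre-miR078, belonged to a contig of a B chromosome or chromosome arm in the study's list of hairpin locations. The expression table holds hairpins without a perfect match to a known mature miRNA, and 59 of them were on B sequences, while the rest were 47 on A and 53 on D sequences. No measured value entered this choice. A label of this kind says where a matching sequence was found, and reads of a durum plant can match like sequences of several chromosomes.

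The libraries held small RNA of 4 genotypes, 2 tissues and 2 treatments, with 6 plants in each of the 16 groups and 96 libraries in all. Tamaroi and Yawa are classed as tolerant of water deficit stress, and EGA Bellaroi and Tjilkuri as sensitive. The developing head and the flag leaf, the last leaf before the head, were collected after 15 d of treatment, starting from booting. Soil water content was 6% (water deficit stress group) or 12%, field capacity (control group). Each group had 3 plants from each of 2 seasons, named here by season and letter (1a to 2c). A head and a flag leaf with the same genotype, treatment, season and letter were taken as organs of the same plant, which gives 48 plants. By breeding background, Tamaroi was compared with EGA Bellaroi and Yawa with Tjilkuri.

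In plants, a microRNA gene is transcribed into a longer RNA that folds back on itself into a stem with a loop. A Dicer-like enzyme cuts a short duplex from the stem, and the mature strand, loaded into an Argonaute protein, directs cleavage or reduced translation of messenger RNAs with a matching site. Members of this class of RNA are known to act on leaf growth, flower and spike development and responses to drought. The counted feature is the hairpin, so a value gives the reads on the whole precursor region. The role of the 59 hairpins is not known from the files, and they are described by position, length and level.

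Values are log2 CPM, reads on the hairpin scaled to the total of the library (in M, 1e+06 reads), where 0.5 read had been added before scaling, so that a library without a read of a hairpin still has a value. The lowest value of a library returns the number of reads behind each value, and all 11259 values under 20 reads were whole within 0.02 reads. Libraries ranged from 0.609 to 36.1 M trimmed reads and from 941 to 91855 reads over the hairpins of the table. The 59 hairpins held 247 to 13969 reads in heads (median 1853) and 1330 to 24736 reads in flag leaves (median 4223). Between 3 and 36 of the 59 were without a read in a head and between 4 and 18 in a flag leaf. A library without a read of a hairpin was assigned a log2 CPM between -5.89 and -0.14, depending on its depth. The tissue labels could not be checked against a defining marker. Of 4 MIR319 entries among the conserved miRNAs, a family known for leaf and flower development, the median in RPM (reads per M reads of the library) was 706 in heads and 5.95 in flag leaves for the Brachypodium distachyon entry and 212 and 3.73 for the Zea mays entry. It was 20.3 in heads and 111 in flag leaves for the entry shared by Arabidopsis thaliana, Triticum aestivum and Glycine max, and 1.03 and 6.08 for a Glycine max entry, so the 4 did not point one way. In small RNA of whole organs, fewer cells that hold a miRNA and less of it in each cell cannot be told apart.

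The B genome hairpins were spread over all 7 B chromosomes, with 14 on 1B, 10 on 2B, 10 on 3B, 7 on 4B, 8 on 5B, 4 on 6B and 6 on 7B. The putative mature miRNA was 21 nt long in 43 hairpins, 22 nt in 10, 23 nt in 4 and 20 nt in 2. The hairpins themselves were 102 to 805 bp long with a median of 141 bp. The 2 longest, pre-miR009 on 1BL (805 bp) and pre-miR072 on 3B (801 bp), had the same pattern of levels, given with the spread among plants. Their sequences are not shown here, and no gene annotation of the survey contigs was used. Positions are those within the survey contig.

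Most members were sparse. The median over the 59 of the mean log2 CPM was -0.20, against 0.55 for the 47 A and -0.19 for the 53 D hairpins. Reads were present in all 96 libraries for 10 hairpins and in at least 48 libraries for 53. The median number of reads per library was under 5 for 31 hairpins and under 20 for 49. The highest mean log2 CPM belonged to pre-miR079 (3B, 7.51), pre-miR045 (2BL, 7.28), pre-miR049 (2BS, 5.24) and pre-miR117 (5BS, 4.70). Then came pre-miR042 (2BL, 3.64), pre-miR113 (5BL, 3.62), pre-miR021 (1BS, 3.43), pre-miR080 (3B, 3.01), pre-miR077 (3B, 2.93) and pre-miR149 (7BS, 1.95). The first 2 of these held 62.9% of the 392559 reads on B genome hairpins.

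Some members could not be separated from a hairpin on another chromosome by their reads. Read counts were equal in at least 90% of libraries between pre-miR020 and pre-miR104 on 4DS (92.7%), pre-miR045 and pre-miR036 on 2AL (90.6%), pre-miR076 and pre-miR083 on 3DL (93.8%), and pre-miR093 and pre-miR032 on 2AL (92.7%). The counts of pre-miR127 equalled those of pre-miR002 on 1AL in 99.0% of libraries and those of pre-miR028 on 1DS in 96.9%. Those of pre-miR148 were equal in all libraries to those of 4 A and D hairpins of the same length. The total of pre-miR078, 14805 reads, was also close to the 14816 reads of pre-miR070 on 3AS, with equal counts in 82.3% of libraries. For these members the B copy and the other copies cannot be told apart. Other members also had a close A or D hairpin without reaching 90%. Counts of pre-miR116 and pre-miR106 on 5AL were equal in 87.5% of libraries. The correlation of log2 CPM was 0.991 for pre-miR021 and pre-miR108 on 5AS and 0.987 for pre-miR117 and pre-miR066 on 3AL. It was 0.978 for pre-miR081 and pre-miR099 on 4DL. Shared reads were not tested for them. Among the B hairpins themselves, the pairs pre-miR011 and pre-miR111, pre-miR016 and pre-miR098, and pre-miR019 and pre-miR095 had total counts of 910 and 918, 1550 and 1548, and 1153 and 1237 reads. The pair pre-miR009 and pre-miR072, the 2 longest, had 4043 and 4007 reads, with equal counts in 25.0% of libraries. Whether these pairs share reads was not tested.

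The comparison of tissues asked which hairpins differ between the developing head and the flag leaf of the same plants. In heads, 12 B genome hairpins were higher and 39 lower than in flag leaves, and 8 did not pass the test. The 5 hairpins pre-miR078, pre-miR044, pre-miR075, pre-miR094 and pre-miR081 had most of their reads in heads and few in flag leaves, although pre-miR081 was sparse in heads too (median 9 reads, none in 4 of 48). Of the 10 most abundant members 9 were lower in heads, among them pre-miR079, pre-miR049, pre-miR117 and pre-miR042. These calls come from limma over all hairpins of the table at an adjusted p of 0.05, on the mean of the 8 genotype and treatment combinations. Over the whole table, 82.4% of hairpins were called, 11.9% higher and 70.4% lower, so a lower value in heads is the rule in this table. The share of B hairpins called was 86.4%, with 20.3% higher and 66.1% lower. The median log2 difference, head minus flag leaf, was -0.89 over the 59 and -0.92 over all hairpins. Called higher were 12 of the 59 B hairpins, 6 of the 47 A and 1 of the 53 D hairpins, and the difference between these shares was not tested.

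**Figure D1:**
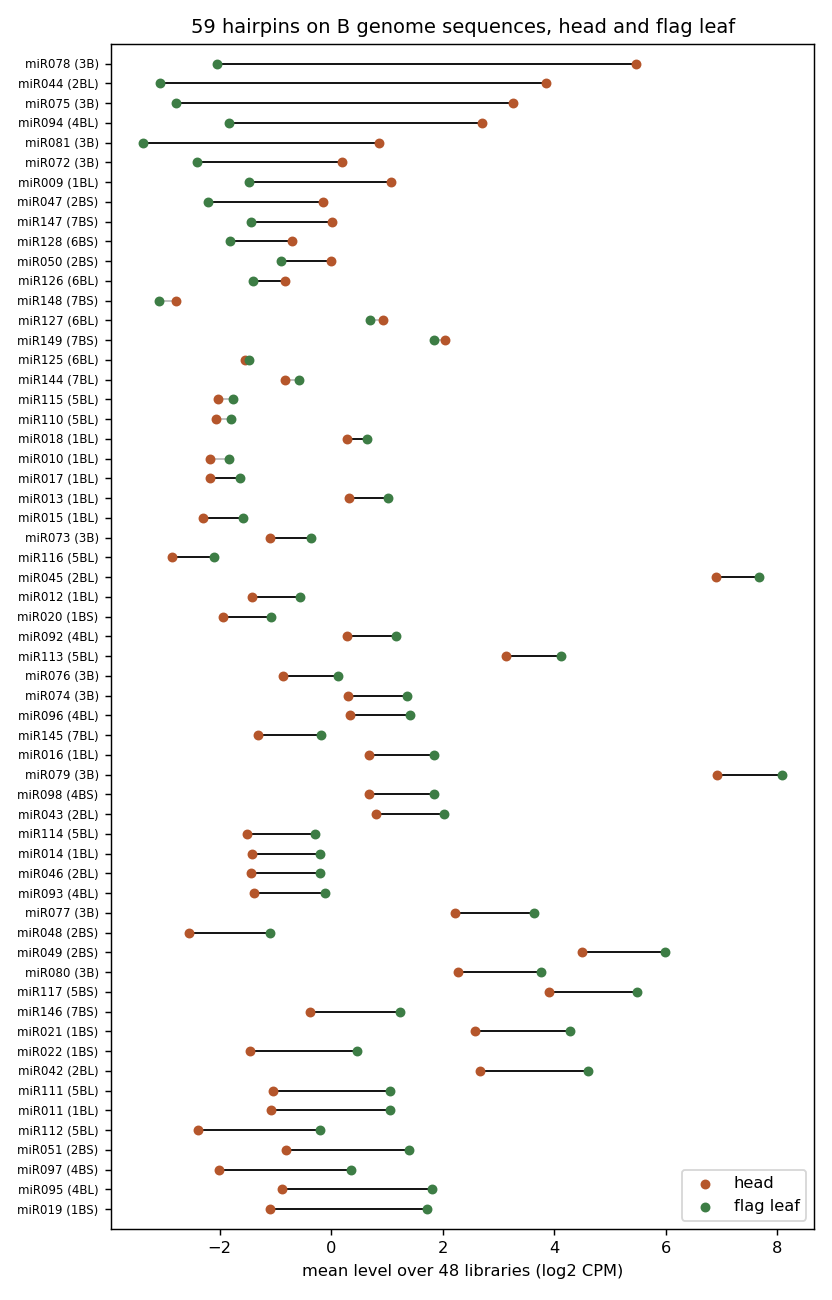
Mean log2 CPM of each of the 59 B genome hairpins in 48 heads and 48 flag leaves, joined by a black line where limma called the difference and by a grey line where it did not. 12 hairpins sit higher in heads, with pre-miR078 farthest apart, and 39 sit lower.

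Among the hairpins higher in heads, pre-miR078 (3B, contig 10768548, positions 1536 to 1714, 22 nt) was present in every head. It had a log2 CPM of 2.53 to 7.45 in heads, with a median of 5.67, and of -4.31 to 1.99 in flag leaves, with a median of -1.98. The groups did not overlap. Heads held 14721 of its reads and flag leaves 84, and the log2 difference was 7.50 (SE 0.23, adjusted p = 2.69e-49).

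The hairpin pre-miR044 (2BL, contig 7950809, positions 6385 to 6679, 21 nt) had a log2 CPM of 0.72 to 5.97 in heads (median 3.94), against -4.66 to 0.57 in flag leaves (median -3.32). It was without a read in 39 of 48 flag leaves and present in all 48 heads, and the groups again did not overlap. The difference was 6.93 (SE 0.21, adjusted p = 2.09e-49). In pre-miR075 (3B, contig 10618984, positions 3164 to 3336, 21 nt) the heads had 6 to 391 reads, against 0 to 9 in flag leaves. Its log2 CPM was 0.80 to 4.79 in heads (median 3.67), against -4.66 to 0.28 in flag leaves (median -3.00), again without overlap. The difference was 6.04 (SE 0.22, adjusted p = 2.09e-43). These 3 were the only members whose 48 heads and 48 flag leaves did not overlap, and 2.52% of all hairpins did not.

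The remaining 2 of this set overlapped between tissues in a few libraries. For pre-miR094 (4BL, contig 6981217, positions 1923 to 2047, 23 nt) heads ranged from 0.03 to 5.45 (median 2.80) and flag leaves from -4.36 to 1.00 (median -1.81) in log2 CPM, with a difference of 4.54 (SE 0.25, adjusted p = 1.36e-30). For pre-miR081 (3B, contig 6961484, positions 1544 to 1664), which has a mature miRNA of 20 nt, 3 reads were found in all flag leaves together and 538 in heads. The difference was 4.23 (SE 0.19, adjusted p = 5.92e-37). Because flag leaves held so few reads, the fitted differences depend on the 0.5 read added. The reads of all heads over their scaled totals, divided by those of all flag leaves, gave a ratio of 197 for pre-miR078, 103 (95% exact interval 73.9 to 150) for pre-miR075 and 25.8 (21.0 to 32.1) for pre-miR094. It was 306 (194 to 517) for pre-miR044 and 201 (68.5 to 979) for pre-miR081. The intervals cover counting error only.

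**Figure D2:**
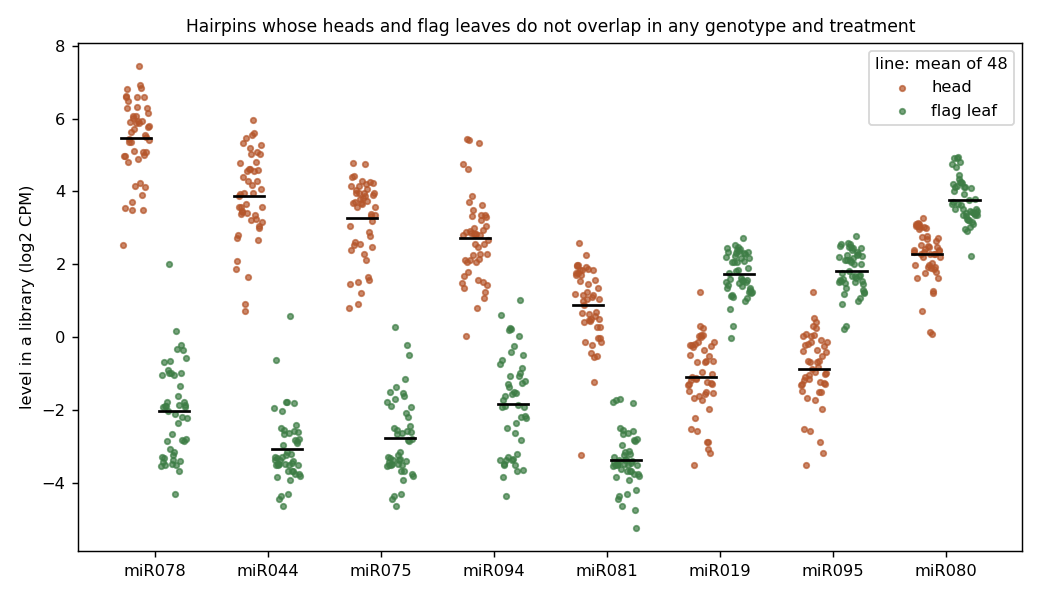
Log2 CPM of 8 B genome hairpins in each of 48 heads (left in each panel) and 48 flag leaves (right). The 48 heads lie above all flag leaves for pre-miR078, pre-miR044 and pre-miR075, mostly above them for pre-miR094 and pre-miR081, and mostly below them for pre-miR019 and pre-miR095. For pre-miR080 the median of heads, 2.35, lies within the flag leaf range of 2.21 to 4.93 and below the flag leaf median of 3.63.

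Each of these 5 was called higher in heads in each of the 8 genotype and treatment combinations, with no overlap between 6 heads and 6 flag leaves in any of them. Of all hairpins, 5.03% were called higher in each of the 8. The other members called higher on the mean were pre-miR072 (3B, 2.61, SE 0.43), pre-miR009 (1BL, 2.55, SE 0.34), pre-miR047 (2BS, 2.05, SE 0.29), pre-miR147 (7BS, 1.45, SE 0.30), pre-miR128 (6BS, 1.10, SE 0.22), pre-miR050 (2BS, 0.89, SE 0.23) and pre-miR126 (6BL, 0.58, SE 0.23). In this order they were called higher in 3, 4, 6, 2, 2, 1 and 1 of the 8 combinations. Just 17 heads had at least 10 reads of pre-miR072 and pre-miR009, with median log2 CPM of 5.11 and 5.07. The other 31 heads had medians of -2.74 and -0.74, against -2.34 and -1.20 in flag leaves. The call of pre-miR126 (adjusted p = 0.018) was lost within either season and without replicate 1b.

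Among the hairpins lower in heads, the largest differences belonged to pre-miR019 (1BS, contig 2526697, positions 965 to 1105) and pre-miR095 (4BL, contig 6983797, positions 1314 to 1461), both with a mature miRNA of 22 nt. The log2 CPM of pre-miR019 was -3.51 to 1.24 in heads (median -1.12), against -0.02 to 2.72 in flag leaves (median 1.69), a difference of -2.81 (SE 0.16, adjusted p = 5.54e-30). Heads held 113 of its reads and flag leaves 1040. That of pre-miR095 was -3.51 to 1.24 in heads (median -0.85) and 0.22 to 2.77 in flag leaves (median 1.80), a difference of -2.70 (SE 0.15, adjusted p = 2.67e-29). Most heads lay below every flag leaf, but the highest heads reached into their range.

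Then followed pre-miR097 (4BS, -2.36, SE 0.22), pre-miR051 (2BS, -2.21, SE 0.20), pre-miR112 (5BL, -2.19, SE 0.22), pre-miR011 (1BL, -2.13, SE 0.24) and pre-miR111 (5BL, -2.10, SE 0.24). The better covered pre-miR042 and pre-miR021 fell by 1.93 (SE 0.14) and 1.71 (SE 0.10) on the log2 scale, as did pre-miR022 on 1BS by 1.93 (SE 0.18). The most abundant member, pre-miR079, had a log2 CPM of 5.69 to 7.89 in heads (median 6.95), against 7.37 to 9.01 in flag leaves (median 8.05). Its difference was -1.17 (SE 0.08, adjusted p = 4.47e-25), a little more negative than the median of all hairpins. The reads shared by pre-miR045 and its like differed by -0.77 (SE 0.18), so that the most abundant pair of members had nearly the same mean in heads, 6.92 for pre-miR079 and 6.89 for pre-miR045, but 8.09 and 7.66 in flag leaves.

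In each of the 8 combinations, 11 members were called lower in heads, which were pre-miR019, pre-miR021, pre-miR042, pre-miR049, pre-miR051, pre-miR077, pre-miR079, pre-miR080, pre-miR095, pre-miR113 and pre-miR117. Of all hairpins, 20.1% were called lower in each. Of these 11, pre-miR019, pre-miR080 and pre-miR095 did not overlap between tissues in any combination, which together with the 5 higher in heads makes 8 members, while 7.55% of all hairpins were without overlap in each of the 8. In Tamaroi, 9 members were called higher and 19 lower in heads under stress (8.81% and 30.8% of all hairpins), and 8 and 23 in control plants (7.55% and 37.1%). In EGA Bellaroi these were 7 and 18 under stress (6.92% and 36.5%), and 8 and 25 in control plants (8.18% and 44.7%). In Yawa they were 6 and 27 under stress (6.92% and 48.4%), and 7 and 19 in control plants (7.55% and 32.1%). In Tjilkuri they were 7 and 20 under stress (7.55% and 35.2%), and 7 and 23 in control plants (7.55% and 35.2%). No member was called in both directions in different combinations. The most calls of a lower value were in Yawa under water deficit stress, where the median difference of all hairpins was also the most negative, at -1.24.

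By length class, the 12 hairpins higher in heads had a mature miRNA of 20 nt in 1, 21 nt in 5, 22 nt in 4 and 23 nt in 2. Of the 39 lower in heads, 31 were of 21 nt, 6 of 22 nt and 2 of 23 nt. Of the 12, 4 were on 3B, 3 on 2B, 2 on 6B and none on 5B. These splits are given as a description and were not tested. The calls of pre-miR017 (-0.54, SE 0.23) and pre-miR018 (-0.34, SE 0.14), close to the threshold, were lost in 7 and 6 of the alternatives, and those of pre-miR012, pre-miR013, pre-miR015, pre-miR020, pre-miR073 and pre-miR116 in 1 or 2. The 8 members without a call were pre-miR010, pre-miR110, pre-miR115, pre-miR144, pre-miR125, pre-miR149, pre-miR127 and pre-miR148. Among them pre-miR149 was well covered, with an interval of the difference of -0.25 to 0.64, while those of pre-miR144 (-1.32 to 0.83) and pre-miR115 (-1.33 to 0.81) were wide.

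The 4 members with the largest spread among plants of the same group were chosen after their values had been seen. The pooled within-group SD of log2 CPM was 2.79 for pre-miR144, 2.77 for pre-miR115, 2.17 for pre-miR072 and 1.74 for pre-miR009, against a median of 1.07 over the 59. These hairpins had many reads in some plants and few or none in others of the same genotype and treatment. What follows on this spread is a description without a test.

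The hairpins pre-miR009 (1BL, contig 3326053, positions 348 to 1152, 23 nt) and pre-miR072 (3B, contig 10417152, positions 9115 to 9915, 22 nt) had the same pattern. In 17 of the 48 heads both had at least 10 reads, and no head had at least 10 reads of only 1 of them. These 17 heads held 18 to 1064 reads of pre-miR009 and 17 to 1086 of pre-miR072, with median log2 CPM of 5.07 and 5.11. The other 31 heads had 0 to 8 and 0 to 4 reads. Flag leaves had at most 12 reads of pre-miR009 and at most 5 of pre-miR072. Heads with at least 10 reads were found in 6 of 6 stressed and 4 of 6 control Tjilkuri plants, in 0 of 6 stressed and 2 of 6 control Yawa plants and in 3 of 6 stressed and 2 of 6 control Tamaroi plants. None was found among the 12 EGA Bellaroi heads.

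**Figure D3:**
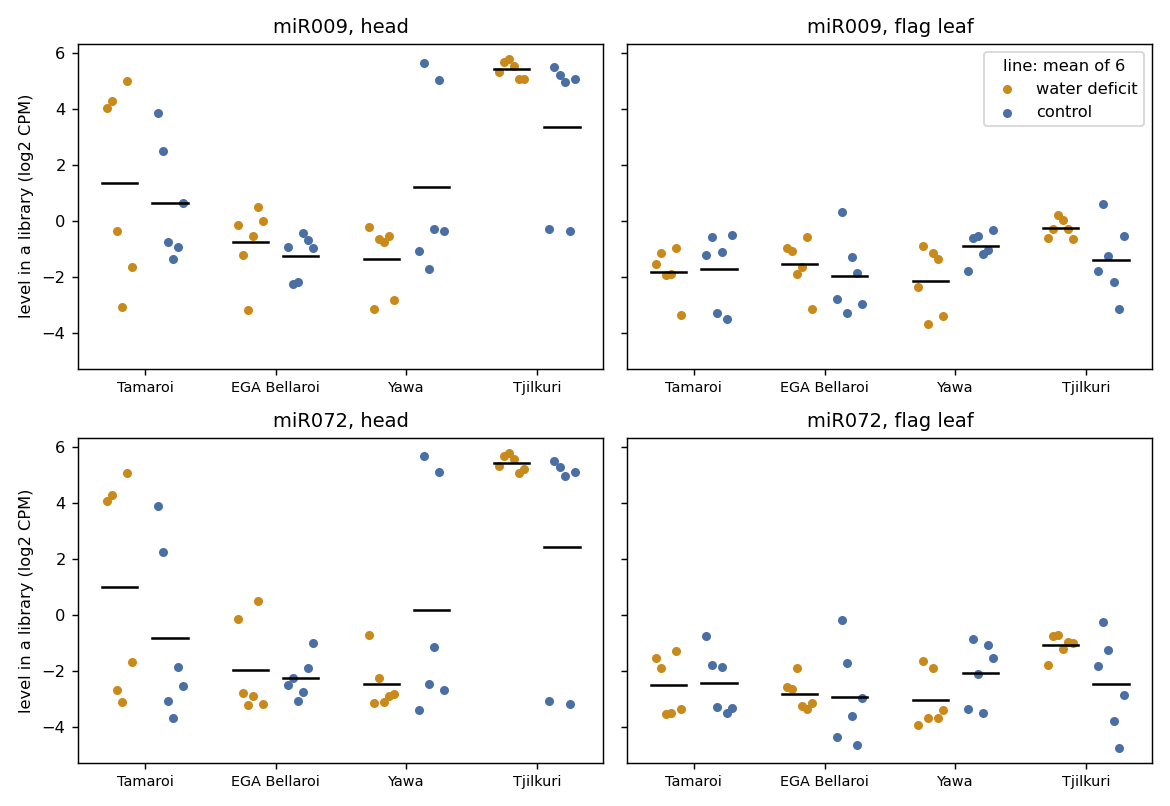
Log2 CPM of pre-miR009 and pre-miR072 in heads and flag leaves of 4 genotypes, with plants under water deficit stress left of control plants, 6 plants in each column and a line at their mean. The heads fall into a high set, which includes all stressed Tjilkuri heads, and a low set near the flag leaves. The high set has medians of 5.07 for pre-miR009 and 5.11 for pre-miR072 and reaches down to 2.48 and 2.26.

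In pre-miR144 (7BL, contig 6697191, positions 1082 to 1210, 20 nt) and pre-miR115 (5BL, contig 10924917, positions 10800 to 10903, 21 nt), the spread followed the plant and not the organ. With at least 2 reads as the limit, pre-miR144 was present in 22 heads and 22 flag leaves and pre-miR115 in 8 heads and 10 flag leaves. No library held both. The head and the flag leaf of a plant were alike for pre-miR144 in 46 of 48 plants, with both organs above the limit in 21 and neither in 25. For pre-miR115 they were alike in 44 of 48, with both in 7 and neither in 37. No Tjilkuri plant under stress reached the limit for pre-miR144, and no Yawa plant and no EGA Bellaroi control plant reached it for pre-miR115.

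Across these plants the reads ranged widely. The highest flag leaf had 162 reads of pre-miR144, in a Yawa control plant, and the highest flag leaf of pre-miR115 had 235 reads, in a stressed Tjilkuri plant. In 2 plants the organs differed for both hairpins. In Tamaroi control plant 2c the head had 0 and the flag leaf 10 reads of pre-miR144, while the head had 15 and the flag leaf 0 of pre-miR115. In stressed EGA Bellaroi plant 1a the head had 2 and the flag leaf 0 reads of pre-miR144, while the head had 0 and the flag leaf 73 of pre-miR115. Whether the labels of these 4 libraries belong together was not tested. Without them, 51 members were again called between tissues.

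**Figure D4:**
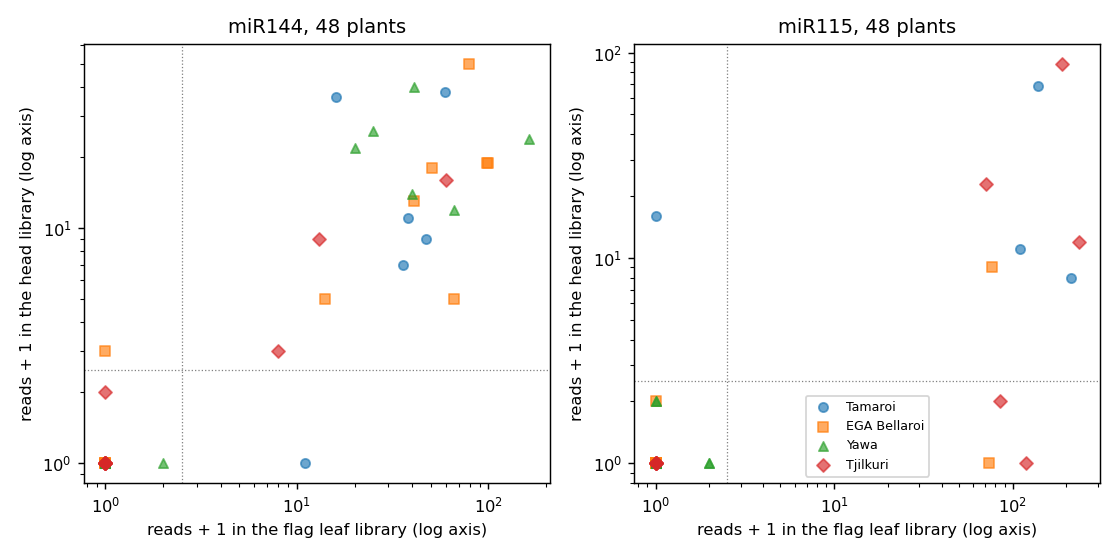
Reads plus 1 of pre-miR144 and pre-miR115 in the flag leaf (horizontal) and the head (vertical) of the same 48 plants, on log axes, with dotted lines between 1 and 2 reads. Most plants lie in the lower left or upper right, with organs alike in 46 of 48 plants for pre-miR144 and 44 of 48 for pre-miR115.

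A further set followed 4 plants. In EGA Bellaroi control plant 1b, Tamaroi control plant 1c and stressed Tamaroi plants 2a and 2c, pre-miR110 (5BL) had 2 to 16 reads in the heads and 32 to 84 in the flag leaves, against at most 7 and 9 in the heads and flag leaves of the other 44 plants. The shared reads of pre-miR148 (7BS) were also highest in these plants, with 0 to 7 in heads and 5 to 13 in flag leaves, against at most 1 elsewhere. In the same 4 plants pre-miR120 on 5DS, which is not a B hairpin, had 2313 to 6779 reads in heads and 9946 to 33064 in flag leaves, against at most 7 and 26 elsewhere. The part of pre-miR120 in the counts of pre-miR110 and pre-miR148 was not tested. Another member, pre-miR077, was lower in these plants than in every other plant of their groups, in both organs. Its log2 CPM was 0.81 and 1.14 in the 2 stressed Tamaroi heads, against 2.04 to 2.59 in the other 4, and 2.07 in the Tamaroi control head, against 2.84 to 3.21 in the other 5. In the EGA Bellaroi control head it was 0.93, against 1.58 to 3.36 in the other 5. The flag leaves had 2.56 and 2.67 in the stressed Tamaroi plants (other 4 at 3.23 to 4.17), 3.14 in the Tamaroi control plant (other 5 at 3.86 to 4.28) and 2.54 in the EGA Bellaroi control plant (other 5 at 3.26 to 3.86).

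The comparison of treatments asked which hairpins respond to water deficit stress in each tissue. No B genome hairpin passed the test on the mean of the 4 genotypes, in heads or in flag leaves, where 0 of all hairpins passed either. With limma, 4 members in heads and 6 in flag leaves had an unadjusted p under 0.05, while 3.14% and 10.1% of all hairpins did. The smallest p in heads were those of pre-miR077 (-0.45, SE 0.15, adjusted p = 0.3) and pre-miR018 (0.45, SE 0.20, adjusted p = 0.781). In flag leaves they were those of pre-miR149 (0.81, SE 0.32, adjusted p = 0.415) and pre-miR128 (0.71, SE 0.31, adjusted p = 0.415).

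Within single genotypes, members passed in Yawa heads alone, where 4 hairpins were lower under stress. These were pre-miR077, pre-miR042, pre-miR080 and pre-miR113, all among the 10 most abundant members. Of all hairpins 5.03% were called there, all lower, against 6.78% of the B hairpins. For pre-miR077 (3B, contig 10651148, positions 2304 to 2430, 22 nt) stressed Yawa heads had a log2 CPM of -0.21 to 2.19 (median 1.44) and control heads of 2.42 to 2.88 (median 2.51). The 2 groups did not overlap, and this held for 0.629% of all hairpins. The difference was -1.36 (SE 0.30, adjusted p = 0.00127), with 57 reads in stressed and 178 in control heads.

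The other 3 overlapped between treatments. The log2 CPM of pre-miR042 was -1.23 to 3.25 (median 1.96) in stressed heads and 2.46 to 3.70 (median 2.95) in control heads, with a difference of -1.62 (SE 0.39, adjusted p = 0.00386). That of pre-miR080 was 0.08 to 2.04 (median 1.24) in stressed heads and 1.92 to 2.79 (median 2.37) in control heads, with a difference of -1.21 (SE 0.30, adjusted p = 0.00386). That of pre-miR113 was 0.89 to 3.26 (median 2.34) in stressed heads and 2.69 to 3.56 (median 3.33) in control heads, with a difference of -1.07 (SE 0.29, adjusted p = 0.0116). In each of the 3, the highest stressed head lay within the range of the control heads, for pre-miR080 just 1 of 6, and the lowest lay below that range.

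These 4 calls moved with the libraries used. None of the 4 was called without replicate 1a or within season 1, and 7 members were called without replicate 1b or without 1c and within season 2. Without replicate 2b or 2c, and with heads fitted alone, 2 were called. The stressed Yawa heads also held fewer hairpin reads, 3818 to 7770 (median 4200) over all hairpins, against 5641 to 16312 (median 9257) in control heads. Of the 59 B hairpins, 12 to 25 (median 21) were without a read in stressed heads and 5 to 18 (median 8.5) in control heads, while trimmed reads were 2.85 to 4.75 M in stressed and 3.47 to 9.54 M in control heads. The median difference over all hairpins was -0.32 and that over the 59 was -0.39. The part of this general shift in the 4 calls was not tested.

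**Figure D5:**
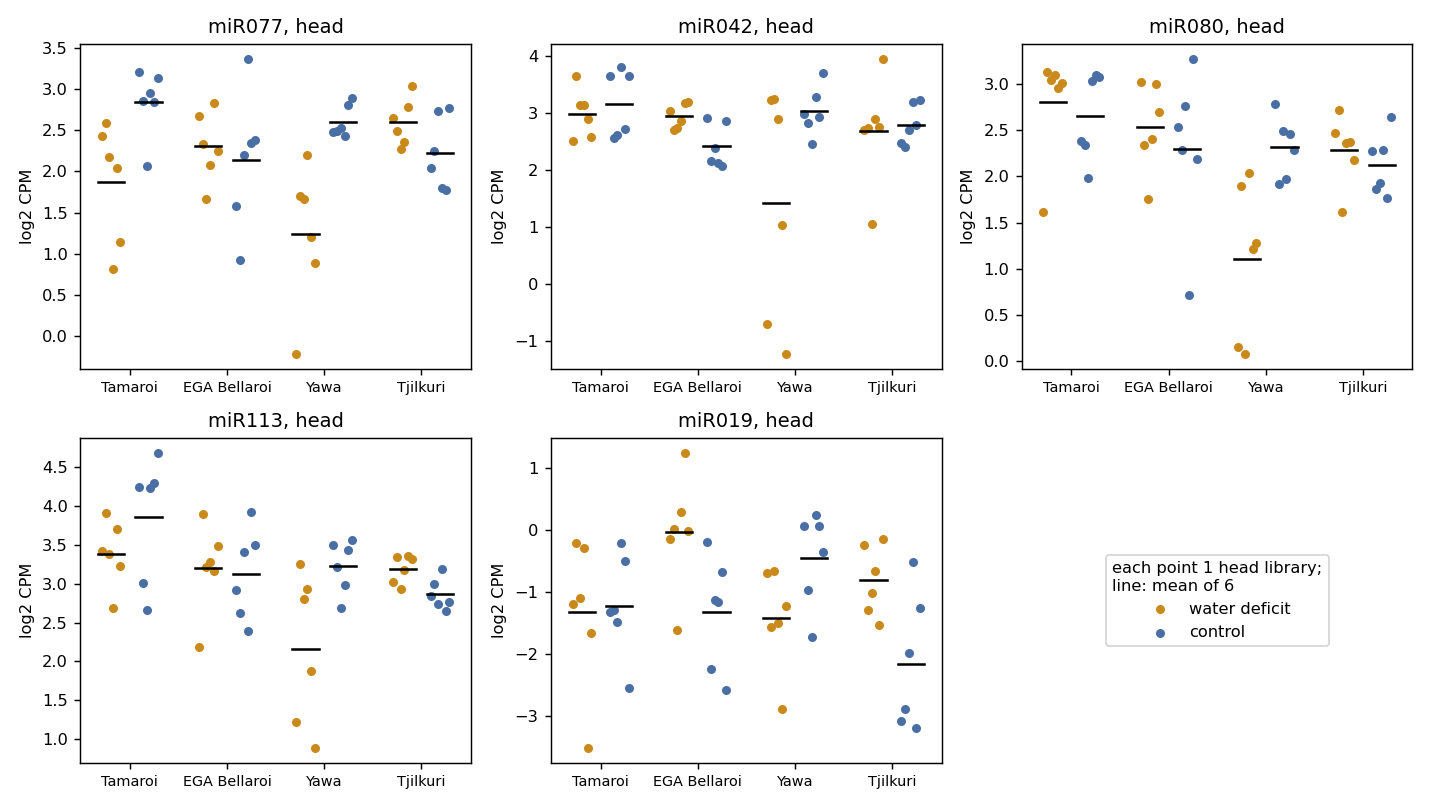
Log2 CPM of pre-miR077, pre-miR042, pre-miR080, pre-miR113 and pre-miR019 in heads of the 4 genotypes, water deficit stress left of control, with 6 plants a column and a line at their mean. The stressed Yawa heads lie lowest for the first 4 hairpins, and those of pre-miR077 do not overlap the Yawa controls.

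In the other 7 combinations of genotype and tissue no member passed with limma, with or without voom weights, and no hairpin of the table did. An unadjusted p under 0.05 was found for 1 member in Tamaroi heads (1.89% of all hairpins), 5 in EGA Bellaroi heads (6.92%) and 3 in Tjilkuri heads (3.14%). In flag leaves it was found for 2 in Tamaroi (2.52%), 8 in EGA Bellaroi (9.43%), 4 in Yawa (5.03%) and 2 in Tjilkuri (4.4%). The smallest p belonged to pre-miR077 (-0.98, adjusted p = 0.116) and pre-miR022 (-0.99, adjusted p = 0.832) in Tamaroi heads, and to pre-miR098 (-1.26, adjusted p = 0.0663) and pre-miR016 (-1.08, adjusted p = 0.138) in EGA Bellaroi heads. In Tjilkuri heads they were pre-miR019 (1.34, adjusted p = 0.503) and pre-miR072 (3.01, adjusted p = 0.798). In flag leaves they were pre-miR094 and pre-miR149 in Tamaroi (adjusted p = 0.977 each), pre-miR128 and pre-miR078 in EGA Bellaroi (0.186 each), pre-miR126 and pre-miR113 in Yawa (0.607 each) and pre-miR116 (0.0831) and pre-miR144 (0.75) in Tjilkuri.

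The comparison of genotypes asked where the tolerant line of a pair differs from the sensitive one. In heads, pre-miR009 and pre-miR072 were lower in Yawa than in Tjilkuri over both treatments, by -4.46 (SE 0.69, adjusted p = 8.49e-07) and -5.09 (SE 0.86, adjusted p = 4.68e-06) in log2 CPM. They were the 2 members called, while 3.77% of all hairpins were, and both stayed called in every alternative run. Since both had at least 10 reads in the same heads, they may not be 2 separate observations, which was not tested. In flag leaves of this pair none of the 59 was called and 1.89% of all hairpins were, while 6 members had an unadjusted p under 0.05 in limma (8.81% of all), with the smallest p for pre-miR116 (1.56, adjusted p = 0.0792) and pre-miR115 (-3.07, adjusted p = 0.163). Without replicate 1a, 1 member was called there.

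Between Tamaroi and EGA Bellaroi no member was called on the mean of both treatments, while 4.4% of all hairpins were called in flag leaves and 0 in heads. An unadjusted p under 0.05 in limma was found for 8 members in heads (14.5% of all hairpins) and 2 in flag leaves (12.6%). The smallest p in heads were those of pre-miR009 (2.02, SE 0.69) and pre-miR079 (0.45, SE 0.16), both with an adjusted p of 0.229. In flag leaves they were those of pre-miR079 (0.35, adjusted p = 0.295) and pre-miR092 (-0.94, adjusted p = 0.371). Within single treatments of this pair no member was called either, while 1.26% of all hairpins were in stressed and in control flag leaves. The limma p was under 0.05 unadjusted for 8 members in stressed heads (10.1%), 4 in control heads (6.29%), 6 in stressed flag leaves (15.7%) and 5 in control flag leaves (11.9%). Without the 4 plants rich in pre-miR120, an alternative chosen after seeing the data, 3 members were called in heads, all higher in Tamaroi. These were pre-miR009 (2.99, adjusted p = 0.00495), pre-miR072 (3.25, adjusted p = 0.0273) and pre-miR079 (0.59, adjusted p = 0.00495). The share of all hairpins called in this alternative is not given here, so the count of 3 cannot be set against it. For pre-miR079 the difference was 0.45 with all plants, and its dependence on the plants left out was not tested. The Tamaroi heads left out held 2, 0 and 1 reads of pre-miR009 and 0, 0 and 1 of pre-miR072. Every Tamaroi head with at least 10 reads of these 2 hairpins was kept, so their higher Tamaroi mean depends on the plants left out. With all plants, the adjusted p within treatments were lowest for pre-miR078 (0.157) and pre-miR050 (0.283) in control flag leaves, pre-miR094 (0.159) and pre-miR019 (0.274) in stressed flag leaves, pre-miR095 (0.206) and pre-miR019 (0.342) in stressed heads and pre-miR113 and pre-miR079 (0.411 each) in control heads.

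Under water deficit stress, 6 members were lower in Yawa than in Tjilkuri heads. They were 10.2% of the 59, against 6.29% of all hairpins called lower and 7.55% called in either direction. The log2 CPM of pre-miR009 was -3.15 to -0.21 (median -0.71) in stressed Yawa heads, against 5.07 to 5.79 (median 5.44) in stressed Tjilkuri heads. That of pre-miR072 was -3.15 to -0.70 (median -2.85) in Yawa and 5.09 to 5.80 (median 5.45) in Tjilkuri. Neither overlapped, and the differences were -6.78 (SE 0.97, adjusted p = 9.7e-08) and -7.93 (SE 1.21, adjusted p = 3.28e-07). Yawa heads held 8 reads of pre-miR009 and 2 of pre-miR072, against 2614 and 2652 in Tjilkuri heads. Over the scaled totals the ratio was 0.00813 (95% exact interval 0.0035 to 0.016) for pre-miR009 and 0.002 (0.000242 to 0.00724) for pre-miR072, for counting error only.

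The other 4 were the hairpins that were lower in stressed than in control Yawa heads, and both comparisons use the same 6 stressed Yawa heads. The difference to Tjilkuri was -1.36 for pre-miR077 (adjusted p = 0.000529), -1.18 for pre-miR080 (adjusted p = 0.0035), -1.03 for pre-miR113 (adjusted p = 0.0132) and -1.27 for pre-miR042 (adjusted p = 0.0258). Stressed Tjilkuri heads had a log2 CPM of 2.27 to 3.03 for pre-miR077 and did not overlap the Yawa heads, whereas 4.4% of all hairpins did not overlap. Within season 1 alone 2 of the 6 were called, and leaving out 1 replicate gave 3 (without 1a) to 7.

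In control heads of this pair 1 member was called, pre-miR019, with 20 reads in Yawa and 2 in Tjilkuri (0.629% of all hairpins called). Its log2 CPM was -1.73 to 0.24 in Yawa and -3.18 to -0.52 in Tjilkuri, with a difference of 1.71 (SE 0.44, adjusted p = 0.0338). The ratio over the scaled totals was 7.45, with an exact interval of 1.81 to 65.8. With the plant as a block, on reads scaled to trimmed reads, with 2 reads added, with voom weights, within each season, with heads fitted alone and without replicate 1a, 1b or 2b it was not called. In stressed flag leaves pre-miR116 was called, with 17 reads in 4 of 6 Yawa plants and none in Tjilkuri (1.89% of all hairpins called). The difference was 2.43 (SE 0.71, adjusted p = 0.0472). Against an assumed 3 reads over the 6 Tjilkuri leaves, the ratio over the scaled totals was 8.06, without the counting error of the 17 reads. The hairpin was not called with the plant as a block, with season as a covariate, with 2 reads added or without replicate 1b, 1c, 2a or 2b. In control flag leaves no member passed and 0.629% of all hairpins did, with 4 members at an unadjusted limma p under 0.05 (5.03%) and pre-miR014 and pre-miR145 (adjusted p = 0.714 each) the nearest.

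The study asked of the hairpins whether the response to water deficit stress differs between tolerant and sensitive genotypes. This was tested here over both tissues, with tissue as an additive term. Tamaroi and Yawa were set against EGA Bellaroi and Tjilkuri without a genotype term, and the 96 libraries were taken as independent. Both organs of a plant thus count separately, and the p refers to spread among libraries, not among genotypes of a class. In this fit, pre-miR077 and pre-miR019 had a more negative response in tolerant than in sensitive genotypes. Neither is among the hairpins that the study named for such a difference, after inspecting read coverage. The interaction, tolerant minus sensitive in the stress response, was -1.02 (SE 0.21, adjusted p = 0.000995) for pre-miR077 and -1.16 (SE 0.33, adjusted p = 0.0389) for pre-miR019. They were 3.39% of the B hairpins, against 2.52% of all hairpins called. Of the 59, 12 had an unadjusted p under 0.05 (15.1% of all hairpins), all negative, and the median over all hairpins was -0.14. On reads scaled to trimmed reads that median was -0.34, a shift of -0.20, and 5 members were called.

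The response of pre-miR077, water deficit minus control, was -0.98 (SE 0.30) in Tamaroi heads and -1.36 (SE 0.30) in Yawa heads, against 0.17 (SE 0.30) in EGA Bellaroi heads and 0.37 (SE 0.30) in Tjilkuri heads. In flag leaves it was -0.41 in both tolerant genotypes (SE 0.30), 0.34 in EGA Bellaroi and 0.07 in Tjilkuri. The 4 plants rich in pre-miR120, in which pre-miR077 was lowest of their groups, are 2 stressed Tamaroi, 1 control Tamaroi and 1 control EGA Bellaroi plant. Without them the response was -0.69 in Tamaroi heads (SE 0.28) and -0.07 in EGA Bellaroi heads, with -0.13 and 0.16 in flag leaves, and in Yawa heads it was -1.36. The interaction of pre-miR077 was -0.85 without them (SE 0.20, adjusted p = 0.00871) and stayed called. The response of pre-miR019 was -0.11 (SE 0.44) in Tamaroi and -0.98 (SE 0.44) in Yawa heads, against 1.29 (SE 0.44) in EGA Bellaroi and 1.34 (SE 0.44) in Tjilkuri heads. In flag leaves it was -0.81 in Tamaroi, -0.04 in Yawa, 0.44 in EGA Bellaroi and -0.36 in Tjilkuri. Its heads had 0 to 13 reads. The highest stressed Tjilkuri head lay at -0.14, the value of no read in replicate 2c. The highest control Tjilkuri head lay at -0.52, also without a read. Among stressed EGA Bellaroi heads, no read gave -0.14 in replicate 1a and -1.08 in 2b. The part of library depth in these responses was not tested.

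The call of pre-miR077 was lost within season 1 and without replicate 2c, where no member was called. That of pre-miR019 was lost in 11 of the 20 alternatives, the plant block (1 member called) among them. The look-alike pre-miR095 had an interaction of -0.98 and was not called (adjusted p = 0.0614). Between seasons, as a check of the pooling of both, no member was called in heads or in flag leaves, nor was any hairpin of the table. With limma, 7 members in heads and 1 in flag leaves had an unadjusted p under 0.05 (6.92% and 4.4% of all hairpins), with pre-miR044 (-0.82, SE 0.28) and pre-miR081 (-0.71, SE 0.26) lowest in heads (adjusted p = 0.236 each) and pre-miR149 (adjusted p = 0.847) and pre-miR126 (adjusted p = 0.906) in flag leaves.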

How the data were processed

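The authors deposited log2 CPM values per hairpin, made from reads trimmed to 19 to 26 bp, filtered against rRNA, organelle, repeat and vector sequences and mapped to bread wheat survey contigs, and RPM values of 110 conserved miRNAs. RPM values deposited by the authors were used for MIR319 and to infer the trimmed reads of each library. That number was the library total at which its RPM values become whole reads. Reads behind the log2 CPM values were recovered from the lowest value of each library. Scaled totals were 0.773 to 1.67 times the trimmed reads, for a reason not given in the sources used here. Aligned reads were not used. limma 3.58.1 (R 4.3.3, trended empirical Bayes, 16 group means over 96 libraries, Benjamini-Hochberg over all hairpins of the table, threshold 0.05) gave all tests across hairpins. The interaction of tolerance and treatment follows the study, while the fit over both tissues with tissue as an additive term was chosen here. The code was tested on simulated data. Biological replicates were separate plants. Head and flag leaf with the same genotype, treatment, season and letter were taken as organs of the same plant, which the labels do not name. Their deviations from the group means had a median correlation of 0.311 over 48 plants, against -0.015 for other plants with the same season and letter, so a plant block was an alternative.

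Earlier results of these data were known when members and lists were chosen, although membership followed location alone and no measured value entered it. Named were the 10 members with the highest mean, up to 10 called in each direction between tissues, up to 5 in each direction elsewhere (the 2 with the smallest p where none was called), members with equal reads in at least 90% of libraries and those whose call an alternative ended. The locations came from the study's hairpin list. Positions are in contigs of the bread wheat survey sequence, not in a chromosome assembly.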

Additional observations from a re-analysis of the deposited data

Results flagged for a closer look

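In groups of 6, a library was singled out where its gap to the nearest other library as a share of the group's range exceeded Dixon's 95% critical value, over 51 groups of the members called outside the tissue comparison. 4 passed, and chance gives about 1 in 20. In stressed Yawa heads, replicate 1a had a log2 CPM of -0.70 for pre-miR072, from 2 reads, where the other 5 had none. In stressed Tjilkuri flag leaves, replicate 1a had 2.17 for pre-miR019. In Tamaroi control plant 1c, pre-miR077 lay apart in both organs, at 2.07 in the head and 3.14 in the flag leaf, and this is 1 of the 4 plants rich in pre-miR120. The response to water deficit stress differed between tolerant and sensitive genotypes by -1.16 for pre-miR019 and -1.02 for pre-miR077, by the interaction term of limma.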

How the results depend on the processing

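Between tissues, 45 to 52 members were called in all alternatives run over the mean of the 8 combinations (45 with 2 reads added, 49 on reads scaled to trimmed reads, 46 in season 2 and 48 in season 1), and no call changed direction; 16 were called in the same direction in each combination. The interaction, with 2 members called, gave 1 with the plant as replicate block (consensus correlation 0.224), 5 on reads scaled to trimmed reads, 1 with 2 reads added, 1 with voom weights, 0 in season 1, 7 in season 2 and 1 without the 8 libraries whose scaled total exceeded 1.2 times their trimmed reads, an alternative chosen after seeing the data. Stress in Yawa heads, with 4 called, gave 0 in season 1, 7 in season 2 and 2 with each tissue alone. For Yawa against Tjilkuri, the 1 call in stressed flag leaves became 0 with season as a covariate, with either replicate block and with 2 reads added. The same held in each season, with each tissue alone and without the plants whose organs differ, also chosen after seeing the data. With at least 48 libraries with reads required it was 0 because pre-miR116, with reads in 29 libraries, was not tested. The 1 call in control heads became 0 with the plant block, trimmed-read scaling, 2 reads added, voom weights, each season and each tissue alone, and the 6 in stressed heads became 2 in season 1. Comparisons with 0 members called gave 1 for stress in flag leaves (season 1), 2 for stress in heads (season 2), 1 in Tjilkuri flag leaves (season 1), 1 in Tamaroi heads (trimmed-read scaling, and season 2) and 1 in EGA Bellaroi heads (season as a covariate). For Tamaroi against EGA Bellaroi they gave 2 in flag leaves (season 2), 2 in heads (season 1), 2 in control flag leaves (season 2), 2 and 1 in stressed flag leaves (seasons 1 and 2) and 1 in stressed heads (season 1). Without the 4 plants rich in pre-miR120, also chosen after seeing the data, this pair gave 3 in heads, 5 in stressed heads and 1 each in stressed and control flag leaves, the interaction gave 1 and the call in stressed flag leaves of Yawa against Tjilkuri became 0. The plant block changed no other count by over 1.5 times.

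Leaving out 1 replicate in turn gave 49 to 51 between tissues, 0 to 7 for the interaction (0 without 2c, 7 without 1c, 1 without 1a, 1b, 2a or 2b), 0 to 7 for stress in Yawa heads and 3 to 7 for stressed heads of Yawa against Tjilkuri. It gave 0 to 1 for flag leaves, stressed flag leaves and control heads of Yawa against Tjilkuri, for stress in EGA Bellaroi and Tjilkuri flag leaves and in Tamaroi and EGA Bellaroi heads, and for stressed flag leaves of Tamaroi against EGA Bellaroi. 1 single value turned, that of pre-miR022 in Tamaroi heads (0.16 in season 1, not called either way). The cause of these changes was not tested, other than that single seasons and left-out replicates have fewer plants. A planned count-based quasi-likelihood test was not run on the reads recovered from the deposited log2 CPM values. 31 members had a median under 5 reads per library, and the part of depth in missing calls was not tested.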
